A study of Mus musculus with 9 samples.

Results

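The SR proteins, the TRA2 proteins, the hnRNPs and the CLK and SRPK kinases were described here as 1 set of splicing regulators, in mouse B16F10 melanoma cells given hypochlorous acid (HOCl) and in untreated CD8+ T cells. Members were the genes of the deposited result tables whose symbol was Srsf, Clk 1 to 4, Srpk 1 to 3 or Hnrnp with its number or letters, or Tra2a or Tra2b. This gave 40 of 54838 genes: 11 SR proteins, 2 TRA2 proteins, 20 hnRNPs, 4 CLK kinases and 3 SRPK kinases. The rule used names only and no measured value.

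SR proteins carry RNA recognition motifs and a tail of alternating arginine and serine, bind exonic sequences, and as a rule favour use of the exon they bind. The hnRNPs coat nascent transcripts, and many of them compete with SR proteins or repress exons. SRPK kinases phosphorylate the arginine-serine tails mainly in the cytoplasm, which lets SR proteins enter the nucleus, and the dual-specificity CLK kinases phosphorylate them further in the nucleus. Many genes of these families are also known to limit their own level through exons that send the transcript to nonsense-mediated decay. The files used here hold counts per gene, which cannot show exon use, so nothing below is a statement on splicing.

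HOCl is the oxidant that neutrophil myeloperoxidase makes from hydrogen peroxide and chloride. B16F10 is a melanoma line of C57BL/6 origin, and the CD8+ T cells were purified with a kit from the spleens of adult mice of that strain. Both were held for 5 h in culture medium that contained 600 µM HOCl or none. Untreated B16F10 had 3 libraries, HOCl-treated B16F10 had 3, untreated T cells had 2 and HOCl-treated T cells had 1, all made from total RNA. The labels do not say whether replicates were separate cultures or mice, or how many mice gave each T cell library. All p-values thus rest on differences among libraries of a group, and these may be purely technical. In bulk RNA, fewer cells of a type and less RNA per cell cannot be told apart.

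Gene counts per library ran from 45.9 to 61.3 M in B16F10 and were 49.9 and 52.1 M for T cells without HOCl. Apart from the others stood the library with the label T cell HOCl. It held 12.8 M counts, mitochondrial genes took 37.4% of them against 1.55 and 2.11% in untreated T cells, and the 9 melanocyte markers summed to 6909 counts per M gene counts (CPM) against 26.0 and 103.5. A count stood in 44225 genes of this library, against 25616 and 22855 in untreated T cells. The library entered no test, and its values are given apart at the end. The 12 T cell markers summed to 7415 and 6720 CPM in untreated T cells, with Cd8a at 452.3 and 359.1 CPM, while 5 B cell markers summed to 1260 and 2358 CPM, most of it from Ighm at 1242 and 2332 CPM. The melanocyte markers summed to 24700 to 25760 CPM in the 6 B16F10 libraries. The T cell markers stood at 14.1 to 17.5 CPM in 5 of these and at 63.7 CPM in HOCl replicate 3, with a count for all 12 markers there and for 11 or 12 of them in the others.

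The promoters of 4 members are shown because these genes had the largest fall (Srsf3), both TRA2 falls and the only rise after HOCl (Clk4). Sequences are from RefSeq on GRCm38.p6, whose promoter table held 37 of the 40 members. They are limited to bases before the start that lie in no GENCODE exon and are read 5′ to 3′ on the strand of the gene. Capitals mark a CCAAT box on either strand (CCAAT or ATTGG) or a cyclic AMP response element (CRE, TGACGTCA). Tra2b held neither in the bases shown. The Clk4 bases precede a RefSeq start that lies inside the GENCODE gene (chr11:51261730-51281766), so they are not upstream of the first base of that gene.
Srsf3, chr17:29032569-29032627, plus strand: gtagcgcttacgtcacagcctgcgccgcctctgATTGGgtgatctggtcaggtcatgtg
Tra2a, chr6:49264053-49264302, minus strand: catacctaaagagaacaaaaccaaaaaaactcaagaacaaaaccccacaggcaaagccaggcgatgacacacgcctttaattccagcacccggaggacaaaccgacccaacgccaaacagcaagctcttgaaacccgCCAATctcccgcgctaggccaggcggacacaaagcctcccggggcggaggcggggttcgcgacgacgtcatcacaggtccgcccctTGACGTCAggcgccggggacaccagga
Tra2b, chr16:22266006-22266255, minus strand: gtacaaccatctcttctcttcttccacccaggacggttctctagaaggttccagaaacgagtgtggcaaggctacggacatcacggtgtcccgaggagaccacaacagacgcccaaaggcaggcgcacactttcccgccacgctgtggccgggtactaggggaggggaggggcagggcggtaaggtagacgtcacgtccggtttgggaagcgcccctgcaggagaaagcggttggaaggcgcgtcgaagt
Clk4, chr11:51263047-51263113, plus strand: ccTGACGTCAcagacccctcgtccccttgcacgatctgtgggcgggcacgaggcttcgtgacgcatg

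Motifs were searched on both strands of the whole RefSeq windows, 250 bases before to 50 after each start, and may overlap each other. A CRE stood in 1.79% of all 32851 promoters and in 3.92% of the 51 promoters of members. The 2 of 37 members that held it were Clk4 and Tra2a, of which 1 rose and 1 fell. A CCAAT box stood in 37.4% of all promoters and in 47.1% of the 51 promoters of members, and 20 of 37 members had at least 1. The core of the antioxidant response element (TGACNNNGC) stood in 12.4% of all promoters and in 25.5% of those of members. The 10 members that held it were Srsf2, Srsf3, Srsf4, Srsf6, Srsf12, Hnrnpa3, Hnrnpab, Hnrnpf, Hnrnpk and Clk3. Of these, 5 were called after HOCl, beside 12 of all 37 members with a promoter. An ETS site (CCGGAAG) stood in 8.86% of all promoters and in 21.6% of those of members, and 1 of the 7 members that held it, Hnrnpf, was called. The share called after HOCl among all genes with each motif was not computed. The other motifs searched stood in 7.15% of all promoters and 11.8% of those of members (E-box, CACGTG), 13.6 and 11.8% (TATA box, TATAAA), 0.971 and 1.96% (NRF1 site) and 3.95 and 3.92% (amino acid response element core, TGATGNAAN). The member promoters had a median GC content of 65.3% against 52.7% over all promoters, which bears on how often any of these letters occurs. All members are protein-coding genes, and the median over the 21263 protein-coding promoters was 56.3%. Of those promoters, 2.23% held a CRE, 38.2% a CCAAT box, 13.0% the antioxidant core and 11.6% an ETS site. The E-box stood in 7.84%, the TATA box in 12.6%, the NRF1 site in 1.33% and the amino acid core in 3.58%. A match describes these letters and not a bound site.

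The comparison of HOCl with untreated B16F10 asked how the oxidant changes the transcripts of the melanoma cells. Of the 40 members, 12 changed, 11 lower and 1 higher, and the changes were small. Srsf3 fell by 0.70 on the log2 scale and was the only member past a 1.5-fold change. Both TRA2 genes, 4 SR proteins and 5 hnRNPs fell, Clk4 rose, and neither tested SRPK passed the test (quasi-likelihood F test of edgeR, Benjamini-Hochberg adjusted p under 0.05 over 16082 genes). Srsf12 and Srpk3 had too few counts to be tested. The share of tested members called, 31.6%, was near the 28.3% of all genes tested. By direction it was 2.63% higher against 14.7% of all genes and 28.9% lower against 13.5%. The median log2 change was −0.07 over the 38 tested members and −0.01 over all genes.

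Srsf3 (chr17:29032628-29043373, GRCm38), a small SR protein that also acts in mRNA export, stood at 367.7, 336.0 and 327.5 CPM in untreated cells. With HOCl it stood at 216.8, 211.6 and 217.0 CPM. Every HOCl library was below every untreated one, and the 3 HOCl libraries lay close together. The log2 change was −0.70 ± 0.05 (SE, n = 3 against 3, edgeR adjusted p = 5.37e-06). Its position was 516 from the lowest of the 16082 genes tested.

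Srsf1, the first SR protein described and a general splicing factor, stood at 389.2, 377.6 and 377.9 CPM untreated and at 323.8, 331.7 and 333.4 CPM with HOCl. It fell by 0.24 ± 0.04 on the log2 scale (edgeR adjusted p = 0.00169). Srsf2, a constituent of nuclear speckles, went from 226.6, 242.5 and 237.0 CPM to 206.5, 209.8 and 198.8 CPM. Its fall was 0.23 ± 0.05 on the log2 scale (edgeR adjusted p = 0.00388). For both genes the groups did not overlap.

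Srsf10, known as a splicing repressor when dephosphorylated after heat shock, stood at 175.0, 196.7 and 177.0 CPM untreated and at 162.1, 165.3 and 172.9 CPM with HOCl. The gap between the groups was small against the spread of the untreated libraries. It fell by 0.16 ± 0.05 on the log2 scale (edgeR adjusted p = 0.0432). The call was lost when library totals replaced TMM scaling and when any library other than untreated replicate 1 was left out. The remaining tested SR proteins, Srsf4, Srsf5, Srsf6, Srsf7, Srsf9 and Srsf11, did not pass. Srsf5 was nearest to a rise, at 230.5, 229.8 and 215.0 CPM against 254.0, 252.6 and 244.6 CPM (log2 change 0.13 ± 0.05, edgeR adjusted p = 0.0657). The authors' deposited table called Srsf5, with an adjusted p of 0.0487, beside the same 12 members as here, and these 12 had equal signs in both. Srsf7 had a log2 change of −0.12 (edgeR adjusted p = 0.0593), and Srsf4, at −0.0025, was the nearest to no difference.

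TRA2 proteins are splicing activators with arginine-serine tails, named for transformer-2 of Drosophila. Tra2b (chr16:22244549-22266005) stood at 156.4, 165.9 and 164.8 CPM untreated and at 129.6, 134.6 and 134.2 CPM with HOCl. It fell by 0.32 ± 0.05 on the log2 scale (edgeR adjusted p = 0.000419). Tra2a (chr6:49243924-49264033) stood at 216.2, 225.1 and 203.6 CPM and then at 188.4, 186.1 and 181.0 CPM. It fell by 0.24 ± 0.05 on the log2 scale (edgeR adjusted p = 0.00344). In both genes all 3 HOCl libraries lay below all 3 untreated ones.

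**Figure D1:**
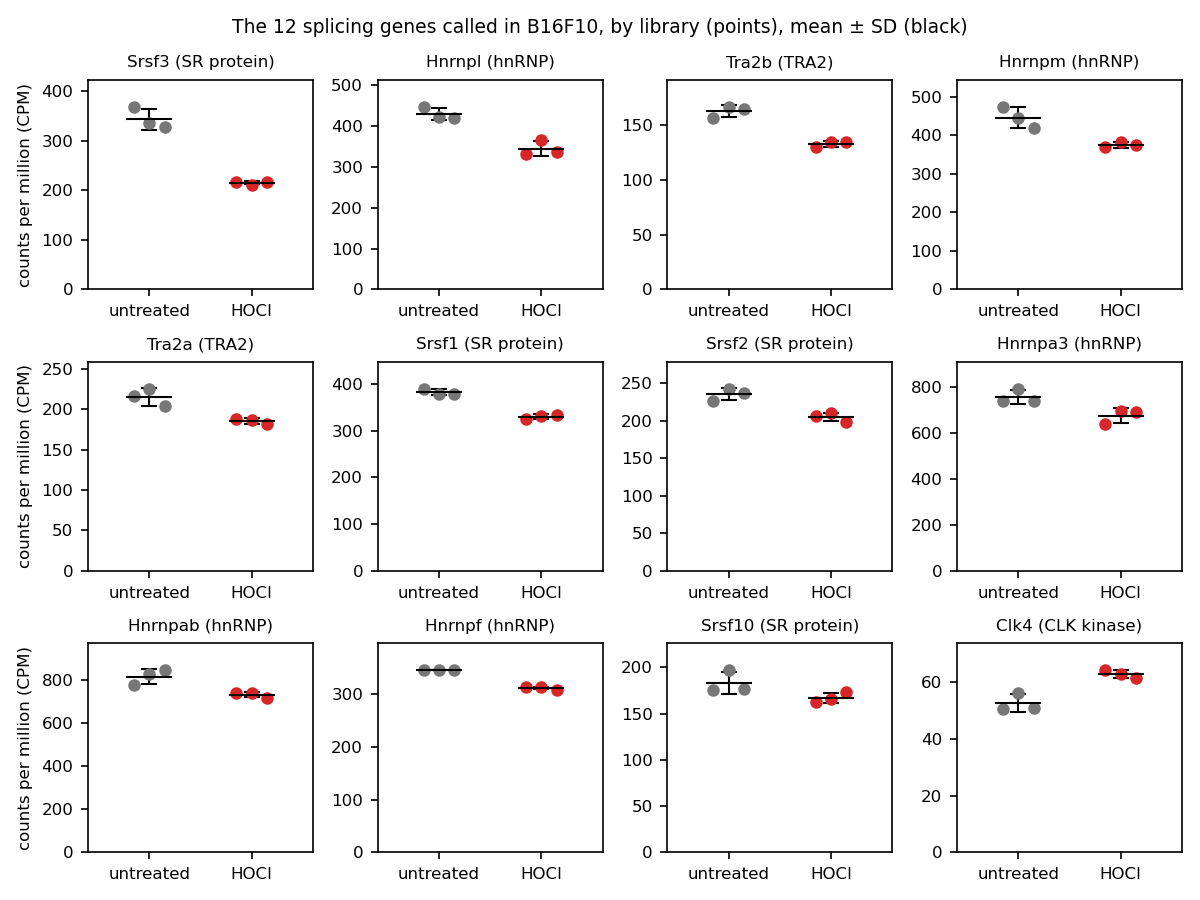
CPM of the 12 members that passed the test in B16F10, with 1 point per library for the 3 untreated and 3 HOCl libraries and a bar at each group's mean. Srsf3 had the widest gap, from 327.5 to 367.7 CPM untreated to 211.6 to 217.0 CPM with HOCl, and Clk4 was the one gene whose HOCl libraries lay above the untreated ones.

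Of the 20 hnRNPs, 5 fell and the other 15 did not pass the test. Hnrnpl, which binds CA-rich RNA, had the largest fall of the family. It stood at 446.2, 421.9 and 420.0 CPM untreated and at 332.7, 365.5 and 336.4 CPM with HOCl. The log2 change was −0.34 ± 0.05 (edgeR adjusted p = 0.000525).

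Hnrnpm stood at 472.1, 444.2 and 418.3 CPM and then at 368.1, 382.5 and 373.5 CPM, a fall of 0.27 ± 0.05 on the log2 scale (edgeR adjusted p = 0.00218). Hnrnpa3, of the A/B group of hnRNPs, stood at 738.9, 792.0 and 737.5 CPM and then at 638.1, 696.0 and 690.7 CPM, a fall of 0.19 ± 0.05 (log2, edgeR adjusted p = 0.0144). No HOCl library of either gene reached the lowest untreated one.

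Hnrnpab fell by 0.18 on the log2 scale (edgeR adjusted p = 0.0115), from 776.5, 826.0 and 844.5 CPM to 739.0, 737.3 and 717.3 CPM. Hnrnpf, which binds runs of G, stood at 344.4, 344.7 and 344.6 CPM and then at 312.6, 312.5 and 308.0 CPM, a fall of 0.17 on the log2 scale (edgeR adjusted p = 0.00868). The Hnrnpf libraries were the tightest within groups of the called genes. Among the hnRNPs not called, Hnrnpa2b1, at 1462 to 1548 CPM untreated and 1383 to 1459 CPM with HOCl, had a log2 change of −0.09 (edgeR adjusted p = 0.15). Hnrnpu, at 854.4 to 913.4 and 816.1 to 871.8 CPM, had a log2 change of −0.10 (edgeR adjusted p = 0.13).

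Clk4 (chr11:51261730-51281766) was the only member that rose. It stood at 50.7, 56.1 and 50.7 CPM untreated and at 64.2, 62.8 and 61.4 CPM with HOCl. All HOCl libraries lay above all untreated ones. The log2 change was 0.23 ± 0.06 (edgeR adjusted p = 0.01), and without HOCl replicate 1 the adjusted p was 0.0543.

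The other kinases of the nuclear group did not pass. Clk1 stood at 71.3, 77.4 and 68.8 CPM against 82.6, 75.3 and 77.4 CPM (log2 change 0.09 ± 0.06, edgeR adjusted p = 0.305), and the groups overlapped. Clk2 had a log2 change of −0.13 ± 0.06 (edgeR adjusted p = 0.126), with 32.9, 34.9 and 32.3 CPM against 31.9, 29.9 and 31.3 CPM. Clk3 had a log2 change of 0.04 ± 0.05 (edgeR adjusted p = 0.625), with 53.8, 53.5 and 50.6 CPM against 55.3, 56.1 and 54.1 CPM. The cytoplasmic kinases Srpk1, at 172.2, 168.8 and 174.4 against 170.3, 180.5 and 180.5 CPM, and Srpk2, at 98.5, 111.3 and 109.1 against 110.5, 115.3 and 115.1 CPM, had log2 changes of 0.02 and 0.07 with overlapping groups. Their unadjusted edgeR p-values were 0.726 and 0.229. Over the 26 members tested and not called, the 95% intervals of the log2 change lay between −0.26 (Clk2) and 0.32 (Hnrnph3).

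**Figure D2:**
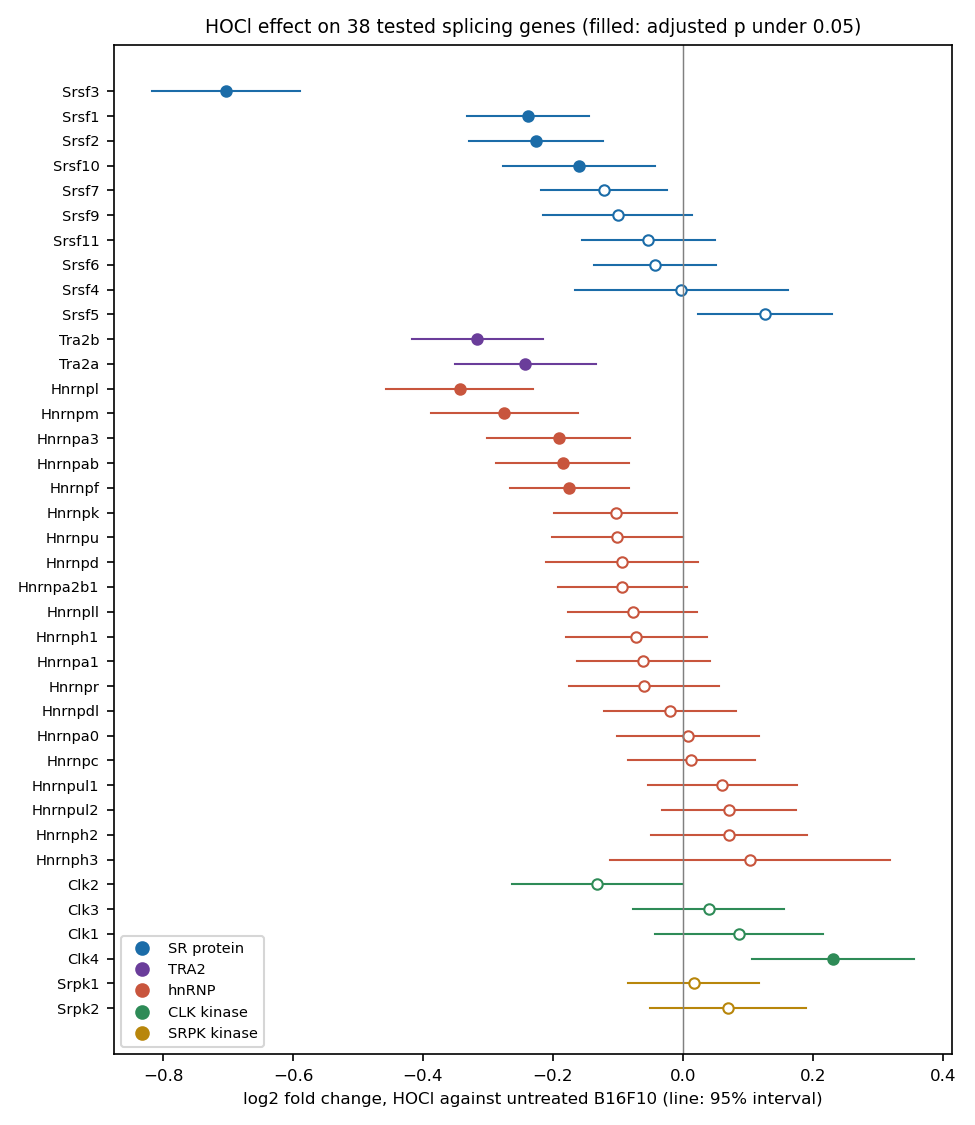
Log2 fold change of HOCl against untreated B16F10 for the 38 tested members, grouped by family, with 95% intervals; filled points passed an adjusted p of 0.05. Srsf3 stands apart at −0.70, and the other 37 lie between −0.34 (Hnrnpl) and 0.23 (Clk4).

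Sums over families are given without a test. SR proteins took 0.210 to 0.218% of counts untreated and 0.192 to 0.193% with HOCl. hnRNPs took 0.846 to 0.873% and then 0.787 to 0.820%. CLK kinases took 0.0202 to 0.0222% and then 0.0224 to 0.0234%. All 40 members together took 1.14 to 1.18% of counts untreated and 1.06 to 1.10% with HOCl. CPM ranges of the groups did not overlap for 20 of the 40 members, 5 above and 15 below, where the share over all genes tested was 43.6%.

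Of the 12 calls, 7 held whichever of the 6 libraries was left out: Srsf1, Srsf2, Srsf3, Tra2a, Tra2b, Hnrnpl and Hnrnpm. Hnrnpa3 was lost without untreated replicate 2 or HOCl replicate 1, Hnrnpab without untreated replicate 3 or HOCl replicate 3, and Hnrnpf without HOCl replicate 3. Without HOCl replicate 3, the library with more T cell marker RNA, 8 members fell, among them those 7. When the T cell libraries shared the fit (all 9 libraries), none of the 12 was called by edgeR, 3 members had an unadjusted p under 0.05, and 11 genes of all tested were higher and 26 lower. Exons of 17 members, 8 of the 12 called, overlap exons of another gene, for instance those of Mettl23 for Srsf2 and of March2 for Hnrnpm. Mettl23 and Srsf2 lie on opposite strands, and since the strand setting of the counting was not given in the sources used, reads of such pairs cannot be told apart. March2 and Hnrnpm lie on the same strand, so reads of their shared exons cannot be told apart under any strand setting. Srsf3, Srsf10, Tra2a and Tra2b have no such overlap, while Hnrnpa1 has many processed pseudogenes with which it could share reads.

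The lists of other splicing genes gave the surroundings of this pattern. Of the 8 hnRNPs that carry another symbol, 3 fell (median log2 change −0.11). These were Rbmx, at 74.4 ± 1.12 CPM untreated and 54.8 ± 1.03 CPM with HOCl (SD, n = 3 each; log2 change −0.47), Ptbp1, the polypyrimidine tract binder, at 357.8 ± 36.0 and 278.0 ± 3.97 CPM (log2 change −0.39), and Syncrip (log2 change −0.18). Of 21 SR-related proteins, 2 rose and 3 fell (median −0.01). Scaf8 rose by 0.39 and Thrap3 by 0.21 on the log2 scale, while Rbm25 fell by 0.46 and Luc7l2 by 0.20.

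Of 11 other kinases, phosphatases and import factors of SR proteins, 4 rose and 1 fell (median −0.07). Dyrk1a, a kinase of splicing factors, rose by 0.45 on the log2 scale, from 82.8 ± 6.82 to 115.3 ± 3.96 CPM (SD, n = 3 each). Cdk12 and Cdk13, kinases of the RNA polymerase II tail, rose by 0.48 and 0.32, and Ppp1cb, a catalytic subunit of protein phosphatase 1, rose by 0.14. Ppm1g, a phosphatase, fell by 0.26 on the log2 scale.

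In the spliceosome itself, 5 of 10 genes of the U1 particle and the Sm ring fell (median −0.17), with Snrpg at −0.43 and Snrpe at −0.38 on the log2 scale. Of 24 genes of the U4/U6.U5 tri-snRNP, 12 fell and 1 rose (median −0.19). Lsm5 fell by 0.43 and Lsm2 by 0.40, and Cd2bp2 rose by 0.18. Of 18 genes that recognise the branch point and the 3′ splice site, 2 fell (median −0.10), Sf3b5 by 0.48 and U2af2 by 0.21. Among 29 tested RNA-binding regulators of other families, 2 rose and 5 fell (median −0.02). Ptbp2, the neuronal relative of Ptbp1, rose by 0.33 and Zranb2 by 0.16, while Tardbp fell by 0.31 and Sfpq by 0.25. Of 10 genes of nonsense-mediated decay, 2 rose (median 0.10), Smg8 by 0.50 and Upf2 by 0.26. Of the list genes named, Thrap3, Luc7l2, Syncrip, Cdk12, Ppp1cb, Cd2bp2, U2af2, Ptbp2 and Zranb2 lost their call when at least 1 library was left out. Each count is from edgeR at an adjusted p under 0.05 and stands beside the 14.7% of all genes called higher and the 13.5% called lower. Unnamed genes in these counts lost calls too. Whichever library was left out, 3 of the 5 U1 and Sm falls and 10 of the 12 tri-snRNP falls held. So did 1 of the 3 SR-related falls and 1 of the 2 rises. Of the regulators of other families, 3 of the 5 falls and 0 of the 2 rises held.

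Untreated T cells were next compared with untreated B16F10, using the same 3 B16F10 libraries as the comparison above, to give the levels of the set in both cell types. Every CLK kinase was higher in T cells, as were Srpk1 and Srpk2, and 20 of the 39 tested members were higher and 4 lower. Clk1 was 5.62-fold higher, Hnrnph3 5.46-fold and Hnrnpdl 4.31-fold, while Hnrnpll and Hnrnpab were among the 4 that were lower. These calls made up 61.5% of the members against 71.1% of all 18352 genes tested. By direction, 51.3% were higher against 35.4% of all genes, and 10.3% lower against 35.8%. The median log2 difference was 0.59 over the members and 0.02 over all genes. With library totals in place of TMM, 15 members were higher and 8 lower, and the median of all genes moved to −0.22. The edgeR folds and log2 differences given are after TMM scaling, while CPM use library totals. Ratios of the CPM printed thus differ from these folds. CPM ranges of the groups did not overlap for 75.0% of members (17 above and 13 below) and for 81.8% of all genes tested.

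Clk1 stood at 335.1 and 350.2 CPM in T cells and at 71.3, 77.4 and 68.8 CPM in B16F10. The log2 difference was 2.49 ± 0.15 (SE, n = 2 against 3, edgeR adjusted p = 3.97e-05). Clk2 stood at 120.9 and 67.1 CPM in T cells, both above B16F10 but wide apart (1.72 ± 0.23, edgeR adjusted p = 0.00104). Clk3, at 84.8 and 102.1 CPM, differed by 1.08 ± 0.17 on the log2 scale (edgeR adjusted p = 0.00182), and Clk4, at 88.0 and 114.5 CPM, by 1.20 ± 0.19 (edgeR adjusted p = 0.00203). Taken as a family, CLK kinases took 0.0629 and 0.0634% of counts in T cells against 0.0202 to 0.0222% in B16F10.

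Srpk1 stood at 550.6 and 335.0 CPM in T cells, a 3.03-fold difference (log2 SE 0.20, edgeR adjusted p = 0.00091). Srpk2, at 125.4 and 126.3 CPM, differed by 0.49 ± 0.14 on the log2 scale (edgeR adjusted p = 0.0196), and this call was lost with library totals. Srpk3, known mainly from muscle, had 6 and 0 counts in the T cell libraries and 2, 2 and 4 in untreated B16F10, and was not tested. A count of 0 allows up to 0.0576 CPM in that library, for counting error only.

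Srsf12 had the largest difference, with 85 and 82 counts in T cells (1.70 and 1.57 CPM) against 0, 0 and 2 in untreated B16F10. It passed the filter on low counts only through the T cells. Because the B16F10 counts were so few, the ratio of CPM is given with its counting interval, 127 (95% exact interval 34.5 to 1060). Among the better measured members, Hnrnph3 stood at 62.3 and 49.9 CPM in T cells and 11.2 to 13.5 CPM in B16F10 (log2 difference 2.45 ± 0.17, edgeR adjusted p = 6.4e-05). Hnrnpdl, a relative of Hnrnpd, stood at 538.0 and 375.6 against 121.5 to 129.8 CPM (2.11 ± 0.17, edgeR adjusted p = 0.000133). Srsf11 (2.93-fold higher), Srsf4 (2.79-fold), Hnrnpul2 (2.48-fold), Hnrnph2 (2.36-fold) and Hnrnpa0 (2.33-fold) were called in every leave-one-out fit.

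In the other direction, Hnrnpll, known in T cells as a regulator of CD45 splicing, stood at 35.0 and 19.0 CPM in T cells against 141.4 to 149.8 CPM in B16F10 (log2 difference −2.21 ± 0.26, edgeR adjusted p = 0.000597). Hnrnpab stood at 160.1 and 163.0 against 776.5 to 844.5 CPM (−2.09 ± 0.18, edgeR adjusted p = 0.000145). Srsf9, at 37.7 and 40.0 against 83.0 to 89.5 CPM, differed by −0.89 ± 0.15 (edgeR adjusted p = 0.00256). Hnrnpu, a nuclear scaffold protein, stood at 542.2 and 440.2 against 854.4 to 913.4 CPM (−0.62 ± 0.17, edgeR adjusted p = 0.0182), and this call was lost when any 1 untreated B16F10 library was left out.

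Several members differed between the 2 untreated T cell libraries, as did many other genes. Srsf1 stood at 360.0 CPM in replicate 1 and 68.6 CPM in replicate 2, a ratio of 5.25. Srsf5 stood at 772.9 and 220.6 CPM (ratio 3.5), Hnrnph1 at 726.3 and 228.9 CPM (3.17), Srsf6 at 363.3 and 145.7 CPM (2.49) and Srsf2 at 226.0 and 106.5 CPM (2.12). Hnrnpc, Tra2b and Srsf3 stood the other way, with Hnrnpc at 311.6 and 629.0 CPM. Of 38 members of at least 10 CPM, 15 (39.5%) differed at least 1.5-fold, beside 42.5% of all 8310 genes at that level. Replicate 1 was the higher in 31.6% of the members and 28.1% of all genes. The median absolute log2 ratio was 0.436 over the members and 0.496 over all 8310 genes. By family it was 0.785 over 10 SR proteins, 0.686 over both TRA2 proteins, 0.403 over 20 hnRNPs, 0.364 over 2 SRPK kinases and 0.323 over the 4 CLK kinases. Within the B16F10 groups the widest ratio of any member at that level was 1.21 (Hnrnph3).

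The T cell difference of several members rests on 1 library. The B cell markers also differed between these libraries, at 1260 and 2358 CPM. The part of these markers in the member ratios was not tested. The log2 difference of Srsf5 between T cells and B16F10 was 1.35 (edgeR adjusted p = 0.0358) and 0.26 without T cell replicate 1. Tra2b, at 0.71 (edgeR adjusted p = 0.0414), was at 0.21 without T cell replicate 2 and no longer called. Leaving out T cell replicate 2 turned the sign of Srsf1, Srsf2, Srsf6, Hnrnpa1, Hnrnpc and Hnrnpf, and leaving out replicate 1 that of Hnrnph1 and Hnrnpm. None of these 8 was called with both libraries. The calls of Srsf5, Srsf7, Srpk2, Tra2b, Hnrnpd and Hnrnpl, and that of Hnrnpu, were lost in at least 1 leave-one-out fit, and 17 of the 24 were not.

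**Figure D3:**
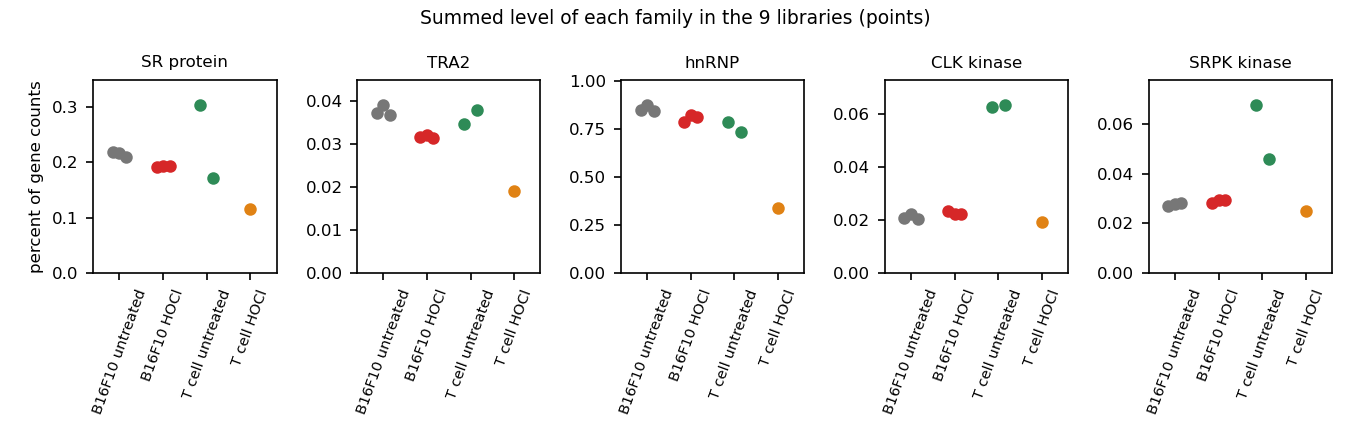
Summed level of each family as a percentage of the gene counts of each library, with 1 point per library and no error bars. SR proteins stand at 0.303 and 0.171% in the 2 untreated T cell libraries, while CLK kinases stand at 0.0629 and 0.0634% there.

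Levels of different genes were compared per exon length, as transcripts per M (TPM) over GENCODE M21 union exons. Union exons pool all annotated transcripts of a gene, so the orders below hold for this length only. It was 7899 bases for Srsf3 and 2958 for Srsf2. In CPM the order of these genes was reversed, with means of 343.7 for Srsf3 and 235.4 for Srsf2 in untreated B16F10. In untreated B16F10 the order began with Hnrnpab at 1027 ± 74.7 TPM (SD, n = 3), Hnrnpa2b1 at 797.7 ± 36.6, Hnrnpa1 at 683.3 ± 20.1 and Hnrnpa3 at 490.5 ± 30.4 TPM, whose ranges did not overlap. Hnrnpf, Hnrnpa0 and Hnrnpk followed at 395.7, 390.8 and 381.5 TPM and overlapped. Srsf2, at 278.6 ± 17.7 TPM, was the highest SR protein and overlapped Hnrnpu, and Srsf6, Srsf1 and Srsf7 followed at 244.7, 233.8 and 214.7 TPM without overlap among themselves. Srsf3 stood at 152.1 ± 4.71 TPM.

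Kinases were low in the order of B16F10, with Srpk1 at 48.6, Clk4 at 31.7, Clk1 at 31.2, Srpk2 at 26.8, Clk2 at 22.03 and Clk3 at 21.8 TPM. Clk4 and Clk1 overlapped, as did Clk2 and Clk3. Srsf12 and Srpk3 were last, at 0.0164 and 0.0683 TPM.

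In untreated T cells Hnrnpa0 had the highest mean, at 617.4 TPM in replicate 1 and 664.2 TPM in replicate 2, above Hnrnpa1 at 514.6 and 502.7 TPM. Hnrnpa2b1 stood at 572.3 and 265.3 TPM in the same order, and Srsf5 at 670.0 and 142.9 TPM, so that Srsf5 was above Hnrnpa0 in replicate 1. Most neighbours further down overlapped. Clk1 had a mean of 126.9 TPM and was 20 in the order, against 32 in B16F10. Hnrnpab was 15 in the order, with a mean of 175.2 TPM, and Hnrnpll 38, with a mean of 7.28 TPM.

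**Figure D4:**
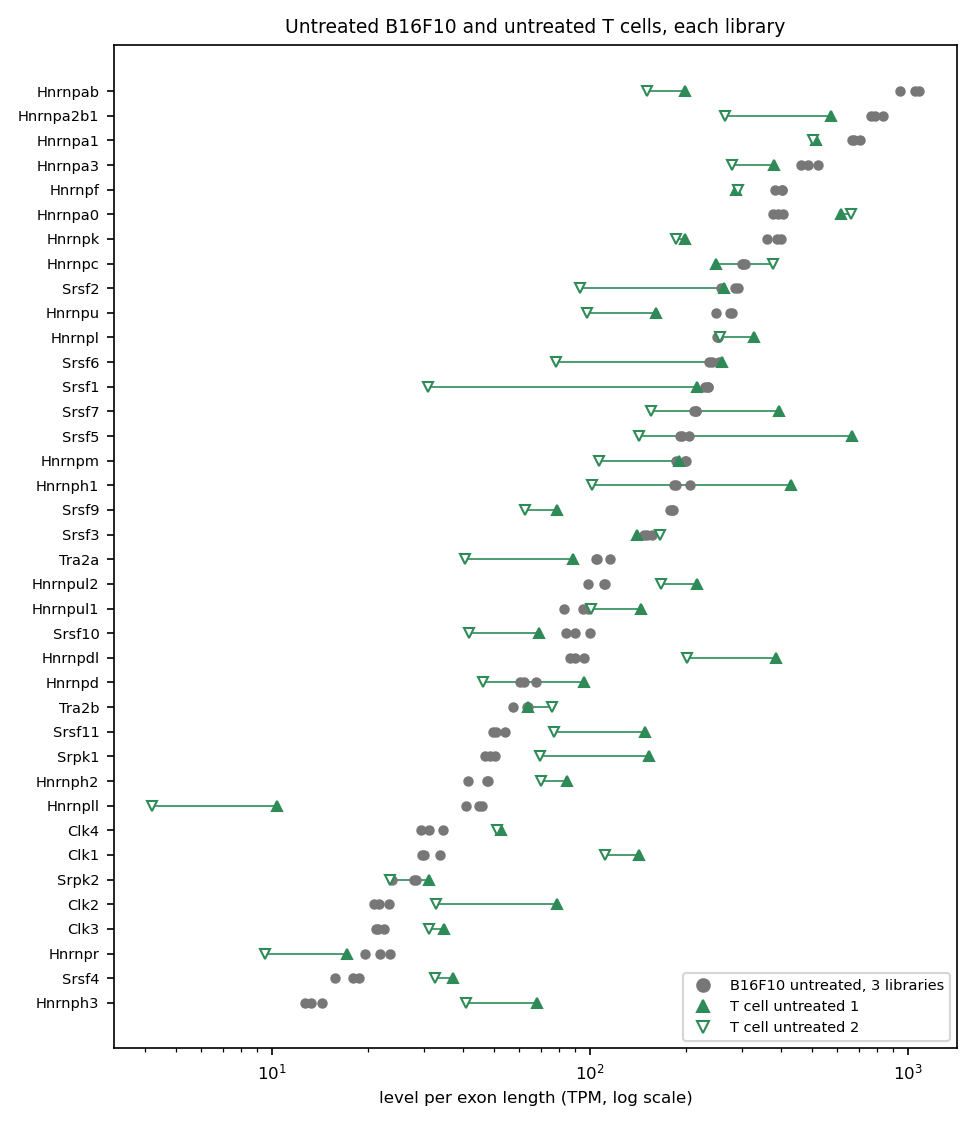
Level per exon length (TPM, log axis) of the members in untreated B16F10 (3 libraries) and untreated T cells (2 libraries), with 1 point per library. Only members with a mean over 1 TPM in untreated B16F10 are drawn, which leaves out Srsf12 and Srpk3. The highest mean is that of Hnrnpab in B16F10, at 1027 TPM, and that of Hnrnpa0 in T cells, at 640.8 TPM, where Srsf5 is higher in replicate 1.

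The related lists were compared between the cell types as well (edgeR, adjusted p under 0.05). In either direction the share called ran from 33.3% (branch point and 3′ splice site) to 71.4% (SR-related proteins), beside 71.1% of all genes tested. By direction, 35.4% of all genes were higher and 35.8% lower in T cells. Of 21 SR-related proteins, 15 were higher in T cells (median log2 difference 0.95), among them Rbm39 at 2.24 and Srrm2, a large nuclear speckle protein, at 1.79. The value of Srrm2 rests on 1 library, since it stood at 2204 and 554.9 CPM in the T cell libraries and at 393.9 to 497.2 CPM in untreated B16F10. Its difference was 0.56 without T cell replicate 1, and it was no longer called without untreated B16F10 replicate 1 (edgeR adjusted p = 0.0722). Of 24 tri-snRNP genes, 4 were higher and 11 lower (median −0.56), with Sart1 at 1.11, Cd2bp2 at 0.98, Lsm3 at −1.52 and Eftud2 at −1.44. Of 10 genes of the U1 particle and Sm ring, 4 were lower (median −0.27), led by Snrpd1 at −1.95 and Snrpa at −1.46. Of 18 branch point and 3′ splice site genes, 3 were higher and 3 lower, with Ddx46 at 1.58, Sf1 at 1.40, Sf3a1 at −1.23 and Phf5a at −1.07. Ddx46 had 21889 and 7814 counts in the T cell libraries, and its difference was 0.69 without T cell replicate 1.

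Of 11 other kinases, phosphatases and import factors, 5 were higher and 2 lower, with Cdk13 at 1.83, Cdk11b at 1.47, Tnpo3, the importin of SR proteins, at −1.07 and Ppm1g at −0.62. Of 8 hnRNPs with another symbol, 2 were higher and 2 lower, among them Cirbp at 2.74, Pcbp2 at 0.53 and Pcbp1 at −1.72. Among 30 regulators of other families, 13 were higher and 5 lower. Mbnl1, at 3.23, stood at 1512 and 1105 CPM in T cells against 144.4 to 176.1 CPM in untreated B16F10, and Rbfox2, at −6.66, at 0.941 and 0.480 CPM against 79.7 to 87.8 CPM. Khdrbs3 and Esrp1 are in these counts but near 0 in 1 cell type, and no fold is given for them. Khdrbs3 had 28 and 43 counts in T cells and 2, 0 and 0 in B16F10. Esrp1 had 2 and 0 counts in T cells and 18, 10 and 7 in B16F10. Its call was lost without T cell replicate 2, and it was not tested without B16F10 replicate 1 or 2. Of 10 genes of nonsense-mediated decay, 5 were higher, among them Smg1 at 2.21 and Smg9 at 1.65. Smg1 stood at 854.7 and 283.3 CPM in T cells, and its difference was 1.28 without T cell replicate 1. The calls of Pcbp2, Phf5a and Ppm1g were lost without at least 1 untreated B16F10 library, as were those of other list genes counted but not named.

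In the single T cell HOCl library, 32 of the 40 members stood below both untreated T cell libraries (80.0%, against 35.4% of the genes tested between the cell types) and 5 above both (12.5%, against 51.9%). All members together took 0.518% of its counts, against 1.05 and 1.26% in untreated T cells. Clk1 stood at 89.7 CPM there, against 335.1 and 350.2 CPM, and Srsf3 at 135.7 CPM, against 321.5 and 507.2 CPM. The shares over all genes were not matched to the level of the members. This library also had counts in more genes, the high mitochondrial share and the melanocyte marker RNA given above. The part of these in the values was not tested.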

How the data were processed

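RNA of 9 libraries was analysed from the raw counts of reads per gene that the authors deposited, not normalised. The submitters' processing notes name mm10 and STAR 2.7.1a, featureCounts 1.6.0, FastQC 0.11.8 and DESeq2 1.22.2. Strand setting, filters and annotation release were not given in the sources used. The deposited tables of the authors' own comparisons gave the symbols and, for HOCl in B16F10, the log2 fold change and adjusted p-value set beside the calls here.

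Genes were joined by Ensembl ID, and all 40 members had the same symbol in GENCODE M21 (GRCm38), whose 1-based coordinates and union exon lengths were used. CPM are per M gene counts of the library. Tests used edgeR 4.0.16 in R 4.3.3: filterByExpr, TMM, a robust quasi-likelihood fit of the compared groups only, and Benjamini-Hochberg adjustment over all genes tested, with a threshold of 0.05. SE is the log2 fold change over the root of its F statistic. The fits were tested on simulated counts with the same set spread for every gene and group. That spread was not taken from these libraries, so the fits were not checked at the spread of the T cell libraries. Groups came from the sample titles. Replicates differed by more than counting noise (chi-square per degree of freedom 3.73 to 23.2 in B16F10 and 393 in untreated T cells), and none was merged. In B16F10 the pairs with untreated replicate 1 stood at 23.2 and 21.2, and the other pairs at 3.73 to 7.01. A gene at 0 could stand at up to 3 counts, and this floor and the exact interval cover counting error only.

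The members, lists and tests were chosen with earlier results of these data known. Every member past the threshold with HOCl and every CLK and SRPK is named. For T cells the 5 largest differences per direction are named, and per list up to 2 per direction; 1 list gene that this rule names is not reported here. Further members were named after their values were seen: those near the threshold, Hnrnpa2b1 and Hnrnpu with HOCl, the next largest T cell differences, and those that differed most between the T cell libraries. So were Syncrip, Ppp1cb and Cdk13 among the list genes with HOCl. The fits were repeated with a block for the replicate number, DESeq2's size factors, library totals, no filter, a mean CPM of at least 1, each library left out, all 9 libraries fitted together, and DESeq2 1.42.0. A fit of 8 libraries, without the T cell HOCl library, was added after seeing the data.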

Additional observations from a re-analysis of the deposited data

Results flagged for a closer look

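In 6 members, every HOCl library of B16F10 lay on one side of the untreated ones and the single T cell HOCl library lay on the opposite side of both untreated T cell libraries; the difference between the cell types was not tested. Clk3 and Clk4, higher with HOCl in B16F10, had 32.6 and 38.5 CPM there, below both untreated T cell libraries. Srsf5 stood at 157.9 CPM, Hnrnph2 at 29.9 CPM and Hnrnpul2 at 94.0 CPM there, also below, while their B16F10 libraries were higher with HOCl. Hnrnpab went the other way, at 238.1 CPM there against 160.1 and 163.0 CPM untreated, and lower in B16F10 with HOCl. Of the 6, only Clk4 and Hnrnpab passed the test in B16F10. These are 6 of the 40 members, beside 3704 (23.0%) of the 16082 genes tested with HOCl, and 32 of the 40 members were below both untreated T cell libraries in the T cell HOCl library.

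Another 3 members had a signal in that library, which enters no comparison, over 1.5 times that of both untreated T cell libraries. The share of all genes past this mark was not computed. Without the mark, 51.9% of the genes tested between the cell types and 12.5% of the members stood above both. Srsf12 stood at 2.65 CPM (34 counts), Srpk3 at 3.89 CPM (50 counts, against 6 and 0) and Hnrnpll at 78.9 CPM, against 35.0 and 19.0 CPM. The melanocyte markers, the mitochondrial share and the number of genes with a count were also high in this library. Their part in these values was not tested.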

How the results depend on the processing

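For HOCl in B16F10 (1 member higher and 11 lower), DESeq2's size factors, no filter and DESeq2's own test gave 1 and 11. Library totals without TMM gave 2 and 10, and a mean CPM of at least 1 gave 2 and 11, Srsf5 being the added rise. With all 9 libraries in 1 fit 0 members were higher and 0 lower by edgeR, and so also with 8 libraries (chosen after seeing the data), with 3 members at an unadjusted p under 0.05 in each; both fits take 1 spread from all libraries, those of T cells included. Leaving out 1 library each gave 0 to 2 higher and 8 to 16 lower, the 16 without untreated replicate 1. For T cells against B16F10 (20 higher and 4 lower), library totals gave 8 lower, 9 and 8 libraries in 1 fit gave 7 lower each, and leaving out 1 library gave 14 to 24 higher and 3 to 12 lower, the 12 without T cell replicate 1. Fits with 1 T cell library assume that it varies like B16F10.

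The sign turned only in members not called in the comparison as reported. With HOCl, the log2 change was 0.025 for Srsf4 and 0.0069 for Hnrnpdl with library totals, and 0.0017 for Srsf4 with a mean CPM of at least 1. Leaving out 1 library each, it ran from −0.046 to 0.042 for Srsf4, −0.029 to 0.039 for Hnrnpa0, −0.00089 to 0.042 for Hnrnpc and −0.033 to 0.0085 for Hnrnpdl. In T cells against B16F10, Hnrnpa1, Hnrnpf and Hnrnpm were at −0.19, −0.20 and −0.22 with library totals and at −0.035, −0.050 and −0.086 with no filter. Hnrnpm was also at −0.023 with all 9 libraries in 1 fit and at −0.025 with the replicate block, and Hnrnpa3 at 0.067 with a mean CPM of at least 1. Leaving out 1 library each, the difference ran from −2.19 to 0.051 for Srsf1, −0.85 to 0.077 for Srsf2, −0.92 to 0.25 for Srsf6, −0.26 to 0.28 for Hnrnpa1, −0.14 to 1.03 for Hnrnpc, −0.30 to 0.29 for Hnrnpf, −0.20 to 1.31 for Hnrnph1 and −0.15 to 0.15 for Hnrnpm. The cause was not tested.

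The replicate numbers were not taken as pairs, since the deviations of same-numbered B16F10 libraries correlated at 0.0358, −0.00353 and 0.00207. With the replicate number as a block, 2 members were higher and 11 lower with HOCl, and 14 higher and 3 lower in T cells. Depth limited Srsf12 and Srpk3, at 0 to 6 counts in each B16F10 library.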
